A study of Mus musculus with 18 samples.

Results

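Lmx1b, Tlx3, Ebf1, Ebf2, Ebf3, Lbx1, Gbx1 and Sall3 are 8 genes for transcription factors of the dorsal horn, the part of the spinal cord that receives sensory input. They were taken as a named list, out of 54446 genes in the count table, and all 8 were among the 20635 genes with enough counts to be tested. The list was selected on counts from these same cords: Lmx1b and Ebf2 had already been named as lower in 1 of the genotypes, the double knock-in of ATXN2-Q33 and TDP-43, and the whole list was proposed with those results in view. For differences that involve that genotype, the counts past edgeR's threshold are therefore given as a description and support nothing. The comparisons that use other libraries are less tied to that choice, although earlier results of these data were known when it was made.

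The samples were total RNA of spinal cord from 18 untreated animals, mice 10 months old, with 3 for each of 6 genotypes. Controls were non-transgenic C57BL/6 mice (NTg), which carried none of the human sequences. The other 5 genotypes were heterozygous knock-ins: hATXN2-Q22 (Q22), hATXN2-Q33 (Q33), hTDP-43 (TDP-43), hATXN2-Q22 with hTDP-43 (the Q22 double knock-in) and hATXN2-Q33 with hTDP-43 (the Q33 double knock-in). ATXN2 is an RNA-binding protein with a glutamine tract, here of 22 or 33 residues, and intermediate expansions of that tract raise the risk of amyotrophic lateral sclerosis. TDP-43, which also binds RNA, aggregates in most cases of that disease. No promoter or cell type is named in the labels for the knock-ins, and no animals are described as pooled. The tissue is a mixture of cells, so fewer cells of a type and less RNA per cell cannot be told apart in any value below.

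Neurons of the dorsal horn are born from dorsal progenitors of the embryonic cord. Lbx1 is a homeodomain factor of the late-born dorsal classes, and Tlx3 and Lmx1b are homeodomain factors that direct those neurons towards the glutamatergic, excitatory fate. Ebf1, Ebf2 and Ebf3 are helix-loop-helix factors of the COE family (also called OLF/EBF), which act in neuronal differentiation, and Ebf1 is also known from B cells and from mural cells of vessels. Gbx1 is a homeodomain factor of dorsal horn neurons, and Sall3 is a zinc finger factor of the spalt family. Several of these genes stay on in adult dorsal horn neurons, many of which relay pain, itch and touch.

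Lmx1b (ENSMUSG00000038765.13) lies on chromosome 2 at 33560965 to 33640511 on the minus strand of mm10, and Tlx3 (ENSMUSG00000040610.7) on chromosome 11 at 33200752 to 33203589 on the minus strand. Ebf1 (ENSMUSG00000057098.14) lies on chromosome 11 at 44617317 to 45008091 on the plus strand, Ebf2 (ENSMUSG00000022053.13) on chromosome 14 at 67233292 to 67430918 on the plus strand, and Ebf3 (ENSMUSG00000010476.14) on chromosome 7 at 137193673 to 137314445 on the minus strand. Lbx1 (ENSMUSG00000025216.9) lies on chromosome 19 at 45232684 to 45235812 on the minus strand, and Gbx1 (ENSMUSG00000067724.5) on chromosome 5 at 24502757 to 24527202 on the minus strand, so that only Tlx3 and Ebf1 share a chromosome. Each value below is the count over a gene's exons.

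The RefSeq promoter table for GRCm38.p6 held 4 of the 8 genes: Lmx1b, Tlx3, Ebf3 and Ebf1, the last with 2 start sites. The upstream windows of Lmx1b and Tlx3, the partners of the excitatory programme, are shown because the levels of both were low in the same 3 cords and because both windows hold 2 CCAAT boxes. Each run is the 250 bases before the RefSeq start, 5′ to 3′ on the gene's own strand, with CCAAT in capitals. The Lmx1b window is chr2:33641099-33641348, minus strand, upstream of the span that the count table gives for the gene, and the Tlx3 window is chr11:33203589-33203838, minus strand.
Lmx1b: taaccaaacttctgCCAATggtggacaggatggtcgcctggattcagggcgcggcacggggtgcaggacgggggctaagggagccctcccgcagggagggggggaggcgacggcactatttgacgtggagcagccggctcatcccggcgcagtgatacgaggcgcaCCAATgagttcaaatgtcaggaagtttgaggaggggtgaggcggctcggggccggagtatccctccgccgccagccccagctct
Tlx3: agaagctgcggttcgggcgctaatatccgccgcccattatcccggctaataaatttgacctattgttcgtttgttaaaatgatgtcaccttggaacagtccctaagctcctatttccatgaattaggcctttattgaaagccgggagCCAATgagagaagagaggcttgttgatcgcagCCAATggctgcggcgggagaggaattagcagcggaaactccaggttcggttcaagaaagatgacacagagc
The boxes in Lmx1b begin 236 and 84 bases before the start, and those in Tlx3 begin 103 and 71 bases before it. CCAAT, on either strand, was present in 33.8% of 32851 promoter windows of this length, and 10.1% held 2 or more. None of the 5 windows of the 4 genes held the consensus motif of EBF factors (0.779% of all windows), TAATTA, a core bound by many homeodomain factors (4.84%), or TATAAA (12.4%), each searched on both strands. In CpG content the windows ranged widely: Ebf3 had 43 CpG dinucleotides in 250 bases, more than 99.3% of windows, while Lmx1b had 19, Tlx3 13 and Ebf1 9 and 14 at its 2 starts, against a median of 6. A match is a description of letters and not evidence of binding.

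Depth ran from 16061359 to 30978678 counts per library. Levels are given as CPM (library-scaled counts, with TMM factors), and 3 counts, the floor used here, came to between 0.101 and 0.176 CPM. Mouse Atxn2 lay between 168 and 200 CPM in every library, with NTg at 169 to 193 CPM. Mouse Tardbp was at 124 to 127 CPM in NTg, and all libraries of the single knock-ins lay below that. They had 107 to 110 CPM in Q22, 115 to 122 CPM in Q33 and 118 to 123 CPM in the TDP-43 knock-in. The Q22 double (112 to 130 CPM) and Q33 double (118 to 127 CPM) libraries overlapped NTg. Neither gene was called by edgeR in any knock-in against NTg. Human ATXN2 and TDP-43 reads were not analysed here. Genes of motor neurons summed to between 366 and 942 CPM in each library, with none of the 10 at 0 throughout a genotype. Y-linked reads were present in 3 of 3 Q22, 2 of 3 Q33, 2 of 3 TDP-43, 1 of 3 Q22 double and 1 of 3 Q33 double libraries but in 0 of 3 from NTg, so sex is unbalanced. The library labelled Q22 replicate 2 held both Y-linked reads (201 CPM) and Xist (99.9 CPM), whereas the other libraries with Y-linked reads had 3.13 to 6.04 CPM of Xist.

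In the control cord the 8 genes differed in level by more than an order of magnitude. Per kilobase of exon, the mean level in NTg was 13.2 ± 1.84 CPM for Ebf3 (SD, n = 3, as for all means below), 6.76 ± 0.653 for Ebf1, 4.47 ± 0.472 for Lbx1, 4.27 ± 1.02 for Ebf2 and 4.12 ± 0.303 for Lmx1b. It was 3.94 ± 0.182 CPM per kilobase for Sall3, 1.09 ± 0.0856 for Gbx1 and 0.806 ± 0.36 for Tlx3. Tlx3 was thus the member nearest to the floor, with 14 to 41 counts in each NTg library.

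The Q33 double knock-in stood apart from the other genotypes for the whole list. For each of the 8 genes, all 3 Q33 double libraries lay below all 15 other libraries. Over all tested genes, 3.83% showed that arrangement (791 of 20635), and because the list was chosen with that genotype in view its count supports nothing by itself. The mean level in the Q33 double knock-in, as a percentage of the NTg mean, was 8.05% for Ebf2, 17% for Lmx1b, 21.4% for Gbx1, 25.4% for Tlx3, 27.4% for Ebf3, 27.9% for Ebf1, 49.7% for Lbx1 and 56.4% for Sall3.

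**Figure D1:**
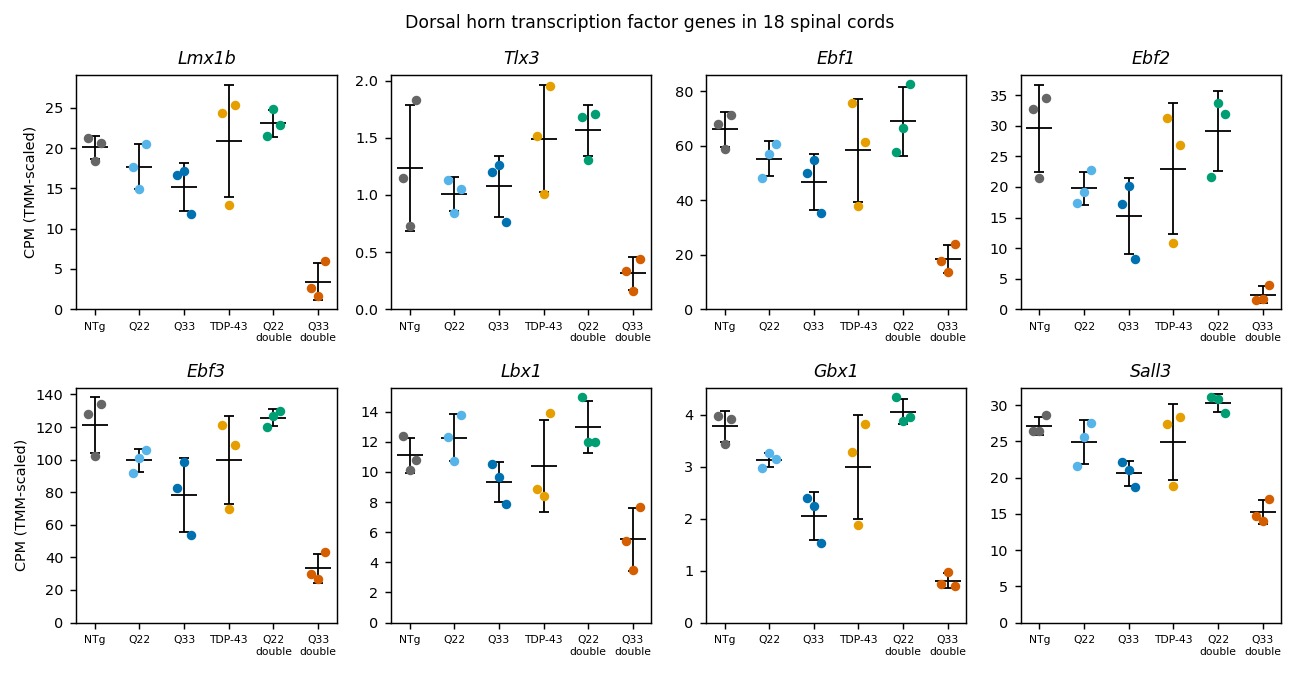
Level of each of the 8 genes in 18 spinal cords, in TMM-scaled CPM on axes that start at 0, by genotype. Each point is 1 library, and bars give the mean and SD of 3 libraries. The Q33 double points lie lowest in every panel: for Ebf2 they are at 1.5, 1.61 and 4.03 CPM, against 8.2 CPM or more in the other 15 libraries.

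Lmx1b was at 21.2, 18.4 and 20.6 CPM in NTg, 17.6, 14.9 and 20.5 CPM in Q22, 16.6, 17.1 and 11.8 CPM in Q33 and 24.4, 12.9 and 25.3 CPM in the TDP-43 knock-in. It was at 21.5, 24.8 and 22.9 CPM in the Q22 double knock-in and at 2.59, 1.61 and 6.02 CPM in the Q33 double knock-in. The highest Q33 double library was thus close to 2-fold (1.95-fold) below the lowest of the others, which was Q33 replicate 3. The fitted log2 difference of the Q33 double knock-in was -2.57 ± 0.33 from NTg and -2.77 ± 0.33 from the Q22 double knock-in (edgeR estimate ± SE, as below).

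Tlx3, which works with Lmx1b in specifying excitatory neurons, was at 1.15, 0.73 and 1.83 CPM in NTg and at 1.68, 1.31 and 1.71 CPM in the Q22 double knock-in. The Q33 double libraries had 0.338, 0.161 and 0.443 CPM, from 9, 4 and 10 counts. These values are low but above the 3-count floor, and the 12 libraries of the remaining genotypes, NTg left aside, ran from 0.766 to 1.95 CPM. The spread within NTg, 0.552 CPM around a mean of 1.24 CPM, was the widest of the 8 genes relative to its mean. The log2 difference of the Q33 double knock-in from NTg was -1.98 ± 0.41.

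Ebf2 had the largest difference of the 8. It was at 32.7, 21.5 and 34.5 CPM in NTg, 21.7, 33.8 and 31.9 CPM in the Q22 double knock-in, 31.3, 10.9 and 26.8 CPM in the TDP-43 knock-in and 17.2, 20.2 and 8.2 CPM in Q33. In Q22 it was at 17.4, 19.1 and 22.8 CPM, and in the Q33 double knock-in at 1.5, 1.61 and 4.03 CPM. The log2 difference of the Q33 double knock-in from NTg was -3.65 ± 0.43. Outside that genotype Ebf2 was also the most variable gene, with a 4.2-fold range over 15 libraries against 1.66-fold for Sall3.

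Ebf3, the most abundant member, was at 128, 102 and 134 CPM in NTg, 92, 101 and 106 CPM in Q22, 82.7, 98.3 and 53.5 CPM in Q33 and 121, 69.6 and 109 CPM in the TDP-43 knock-in. It was at 120, 127 and 130 CPM in the Q22 double knock-in and at 29.9, 26.6 and 43.5 CPM in the Q33 double knock-in. Ebf1 was lower in level and had the same lowest libraries: it was at 67.9, 58.9 and 71.1 CPM in NTg, 57.7, 66.5 and 82.6 CPM in the Q22 double knock-in and 17.7, 13.8 and 23.8 CPM in the Q33 double knock-in. The remaining 9 libraries had 35.3 to 75.6 CPM of Ebf1. The log2 differences of the Q33 double knock-in from NTg were -1.87 ± 0.22 for Ebf3 and -1.84 ± 0.23 for Ebf1.

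Because the 3 Ebf genes are paralogs, their shares of the summed Ebf1, Ebf2 and Ebf3 level per kilobase were compared as a description. In NTg the mean shares were 54.5% ± 0.312 Ebf3, 28.1% ± 1.52 Ebf1 and 17.5% ± 1.82 Ebf2. In the Q33 double knock-in they were 62.0% ± 1.41 Ebf3, 32.4% ± 1.74 Ebf1 and 5.59% ± 1.75 Ebf2. The Ebf2 share was 4.11%, 5.12% and 7.52% in the 3 Q33 double libraries and ran from 11.2% to 19.2% in the other 15, so the 2 ranges did not overlap. The lowest of the 15 were again Q33 replicate 3 (11.2%) and TDP-43 replicate 2 (12.1%), in which the level of the whole list was also lowest among the 15.

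Lbx1 and Sall3 differed least. Sall3 (ENSMUSG00000024565.8) lies on chromosome 18 at 80966376 to 80986578 on the minus strand of mm10. Lbx1 was at 12.4, 10.1 and 10.8 CPM in NTg, 15, 12 and 12 CPM in the Q22 double knock-in and 5.44, 3.46 and 7.66 CPM in the Q33 double knock-in. The highest Q33 double library was just under the lowest of the others, Q33 replicate 3 at 7.85 CPM. The log2 difference from NTg was -1.01 ± 0.23. Sall3 was at 26.4, 26.5 and 28.6 CPM in NTg and 14.7, 14 and 17.1 CPM in the Q33 double knock-in, a log2 difference of -0.83 ± 0.14, with 18.7 CPM as the lowest value elsewhere.

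Gbx1 combined a low level with a large difference. It was at 3.99, 3.44 and 3.92 CPM in NTg, 2.98, 3.26 and 3.15 CPM in Q22, 2.4, 2.25 and 1.53 CPM in Q33 and 3.28, 1.88 and 3.82 CPM in the TDP-43 knock-in. It was at 4.34, 3.89 and 3.97 CPM in the Q22 double knock-in and at 0.751, 0.965 and 0.708 CPM in the Q33 double knock-in, the latter from 20, 24 and 16 counts. The log2 difference of the Q33 double knock-in from NTg was -2.22 ± 0.26.

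The order of the 6 genotypes was much the same from gene to gene. The Q22 double knock-in had the highest mean for 7 of the 8 genes, NTg for Ebf2, and the Q33 double knock-in the lowest for all 8. Q33 was second lowest for 7 genes, and for Tlx3 that place was taken by Q22. Between neighbours in this order the libraries overlapped at nearly every step above the Q33 double knock-in. The exceptions were Gbx1, whose NTg libraries lay above those of Q22, and Sall3, whose Q22 double libraries lay above those of NTg.

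All 8 genes passed the threshold (edgeR, adjusted p under 0.05) as lower in the Q33 double knock-in against NTg, where 12.1% of all tested genes were called, 6.39% as lower. The median log2 difference was -1.92 over the 8 genes and -0.01 over all tested genes. All 8 also passed as lower against the Q22 double knock-in, with 12.8% of all genes called (6.17% lower), and against the TDP-43 knock-in, with 12.6% called (6.66% lower). These comparisons share the Q33 double libraries, so they do not add up as separate evidence, and the list was chosen with those libraries in view, so nothing is read from the counts. Leaving out Q33 double replicate 1 left 7 of the 8 called against NTg, with Lbx1 lost. Scaled by library totals alone, without TMM, the split of all genes called against NTg moved from 52.9% lower to 95.0% lower and the median of all genes moved by -0.24. All 8 genes were still lower under that scaling, at -1.06 to -3.88.

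Against Q33, the knock-in that shares the ATXN2 form but lacks human TDP-43, the estimates for the Q33 double cords were smaller for every gene than against NTg. They were -2.69 ± 0.42 for Ebf2, -2.17 ± 0.33 for Lmx1b, -1.76 ± 0.42 for Tlx3, -1.34 ± 0.26 for Gbx1 and -1.34 ± 0.23 for Ebf1. For Ebf3, Lbx1 and Sall3 they were -1.23 ± 0.22, -0.76 ± 0.23 and -0.43 ± 0.14. Of the 8 genes 5 were called lower, and Tlx3, Lbx1 and Sall3 were not, where 0.892% of all genes were called (0.678% lower). That count rested on single libraries: it was 2 without Q33 replicate 1 or without Q33 replicate 2, and 0 without Q33 double replicate 1.

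**Figure D2:**
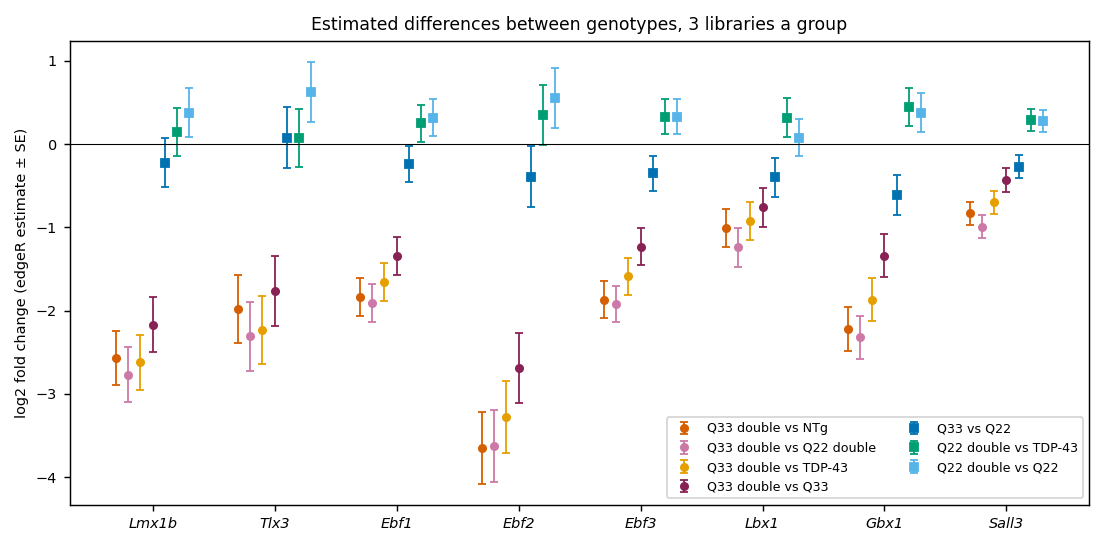
Log2 fold change of each gene in 7 comparisons of 2 genotypes (edgeR estimate, bars are 1 SE, 3 libraries a group). Circles are the 4 comparisons that use the Q33 double libraries and squares the 3 that use neither those nor NTg: the squares lie between -0.61 and 0.63, the circles between -3.65 and -0.43.

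There were 3 comparisons that use neither the Q33 double libraries nor NTg. They share no library with the comparison in which Lmx1b and Ebf2 had been named. Earlier results of these data were known when the list was chosen, and all 18 libraries entered the same fit, so their independence of that choice is not complete. Q33 against Q22 asks about tract length without human TDP-43, and none of the 8 genes passed (edgeR, 0 of 8, with 0% of all genes called). The estimates ran from -0.61 to 0.08. Gbx1 had the lowest, -0.61 ± 0.24 (edgeR adjusted p = 1), and was the only member under 0.05 unadjusted, as 2.14% of all genes were. DESeq2 and limma-voom called 0 of the 8 as well, and edgeR also called 0 without the library labelled Q22 replicate 2.

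The Q22 double knock-in against the TDP-43 knock-in asks about adding the shorter tract to human TDP-43. Again 0 of 8 genes passed in edgeR, DESeq2 or limma-voom, with 0% of all genes called by edgeR. Estimates ran from 0.07 for Tlx3 to 0.45 ± 0.23 for Gbx1, and the single gene under 0.05 unadjusted was Sall3 (0.29 ± 0.13, edgeR adjusted p = 1), where 2.41% of all genes were. The Q22 double knock-in against Q22 asks about adding human TDP-43 to the shorter tract, and 0 of 8 passed with each of the same tools, with 0% of all genes called by edgeR. Estimates ran from 0.08 for Lbx1 to 0.63 ± 0.36 for Tlx3, and Sall3 was again the single gene under 0.05 unadjusted (0.28 ± 0.13, edgeR adjusted p = 0.97), where 4.12% of all genes were. In that comparison the libraries of 5 genes did not overlap, all higher in the double knock-in, where 4.92% of all genes were separated in that direction. Without the filter on low counts edgeR called 1 of the 8, Ebf2 (0.58 ± 0.14), and 0.372% of all genes in that fit (146), where the SE of Ebf2 in the filtered fit was 0.36. With 3 libraries a group these results leave moderate differences in either direction undecided.

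Single knock-ins and the Q22 double knock-in were each compared with NTg, which is also the control of the comparison that chose the list. None of the 8 genes was called in any of the 4 comparisons by edgeR, DESeq2 or limma-voom. Of all genes, edgeR called 0% in each single knock-in and 0.00969% for the Q22 double. The estimates against NTg ran from -0.58 to 0.14 in Q22, from -0.37 to 0.26 in the TDP-43 knock-in and from -0.02 to 0.33 for the Q22 double, with 0 of 8 genes under 0.05 unadjusted in each. In Q33 they ran from -0.97 to -0.21, below 0 for 8 of 8 genes. There 5 genes were under 0.05 unadjusted (Gbx1, Ebf3, Sall3, Ebf2 and Ebf1), with edgeR adjusted p of 0.66 or 0.67, where 7.28% of all tested genes were. The libraries of 6 genes lay wholly below NTg, where 7.75% of all genes did. Without the filter on low counts edgeR called 3 genes in Q33 (Ebf1, Ebf2 and Ebf3) and 1 in Q22 (Ebf2), all lower than NTg, where that fit called 1.04% (408) and 0.607% (238) of all its genes and the filtered fit 0.

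A further contrast asked whether the effect of tract length depends on human TDP-43. This contrast, the Q33 double minus Q22 double difference less the Q33 minus Q22 difference, is given as a description because it uses the Q33 double libraries. Its estimates were below 0 for all 8 genes, from -0.71 ± 0.19 for Sall3 to -3.25 ± 0.56 for Ebf2, and 5 genes passed, where 0.344% of all tested genes did. DESeq2 called 6 of the 8, where it called 1.53% of all genes (601), and limma-voom 1, where it called 0.131% (27). The count fell to 0 when any of Q22 replicate 1, Q22 replicate 2, Q33 replicate 1, Q33 replicate 2, Q22 double replicate 2, Q22 double replicate 3 or Q33 double replicate 1 was left out. It was 2 without Q22 replicate 3, 3 without Q33 double replicate 2 and 7 without TDP-43 replicate 2. In the contrast of Q33 with human TDP-43 over all 4 genotypes concerned, 0 of 8 passed in edgeR (6 under 0.05 unadjusted, as 13% of all genes were) and 0 in limma-voom. DESeq2 called 3 of the 8 and 0.306% of all genes (120), and edgeR without the filter on low counts called 5 of the 8 and 1.36% of all genes (533). For Q22 the same form gave 0 of 8 in each tool, with 2 under 0.05 unadjusted in edgeR (4.01% of all genes) and 2 called higher without the filter (0.492% of all genes called, 193). In both, edgeR with the filter called 0% of all genes.

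The 8 genes also varied together from cord to cord. Pearson's r between 2 members over the log2 CPM of 18 libraries had a median of 0.92 over the 28 pairs, from 0.83 for Lbx1 with Gbx1 to 0.99 for Ebf2 with Ebf3. Over the 15 libraries without the Q33 double knock-in the median was 0.85, with 0.97 for Ebf2 with Ebf3 and 0.47 for Ebf1 with Lbx1. These values share library and depth within each point and are given without a test. The 15 libraries include 2 that were low for the list: the mean log2 CPM of the 8 genes was 3.15 in Q33 replicate 3 and 3.37 in TDP-43 replicate 2, against 3.72 to 4.28 in the other 13 and 2.01, 1.73 and 2.56 in the Q33 double libraries.

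Properties of the libraries moved with the same genotype. Mitochondrial ribosomal RNA took 28.7%, 26.3% and 23.4% of counts in the Q33 double libraries and 12.7% to 23.4% in the others. At the same share of 23.4%, Q33 replicate 2 had a member mean of 3.77 log2 CPM and Q33 double replicate 3 had 2.56. In the TDP-43 knock-in, replicate 2 had a share of 20.9% and a mean of 3.37, and replicate 3 had 12.7% and 4.22. In NTg, replicate 1 had 14.3% and 4.15, and replicate 3 had 19.8% and 4.24. All of these are single libraries, given as a description. With that share as a covariate the estimates against NTg stayed below 0 for all 8 genes (Ebf2 -3.36 ± 0.57, Lmx1b -2.15 ± 0.43, Gbx1 -1.95 ± 0.36), and 3 of the 8 were still called, Ebf2, Ebf3 and Gbx1, where 28 genes in all were. Against the Q22 double knock-in 5 were called with that covariate, where 73 genes in all were (0.354%). Against the TDP-43 knock-in 0 of the 8 were called, where 3 genes in all were (0.0145%), and against Q33 0 of the 8 and 0 genes in all. The part of the share in the difference was not tested beyond this.

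Hox10 and Hox11 genes, which mark caudal cord, were also high in the Q33 double libraries, with mean log2 CPM of 1.25, 3.54 and 0.57. They were at -0.83, -2 and -1.56 in NTg and at -1.44, -2.21 and -1.77 in the TDP-43 knock-in. No library of those genotypes thus reached the Hox level of a Q33 double library. The part of this level in the difference was not tested beyond the covariate fits below. Q22 double replicate 1 reached 3.51 with a member mean of 4.18, while Q33 double replicate 2, at 3.54, had a member mean of 1.73. Q33 replicates 2 and 3 were at 2.71 and 1.95 with member means of 3.77 and 3.15. These too are single libraries, given as a description. With this level as a covariate 7 of the 8 genes were called against NTg, where 2.22% of all genes were (459), at -2.44 ± 0.37 for Lmx1b and -3.48 ± 0.47 for Ebf2, and Lbx1 was not (-0.99 ± 0.27). With a term for Y-linked reads all 8 were called, where 10.2% of all genes were. With this term and the Hox level together, an alternative chosen after the data were seen, 5 were, where 0.867% of all genes were (179).

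**Figure D3:**
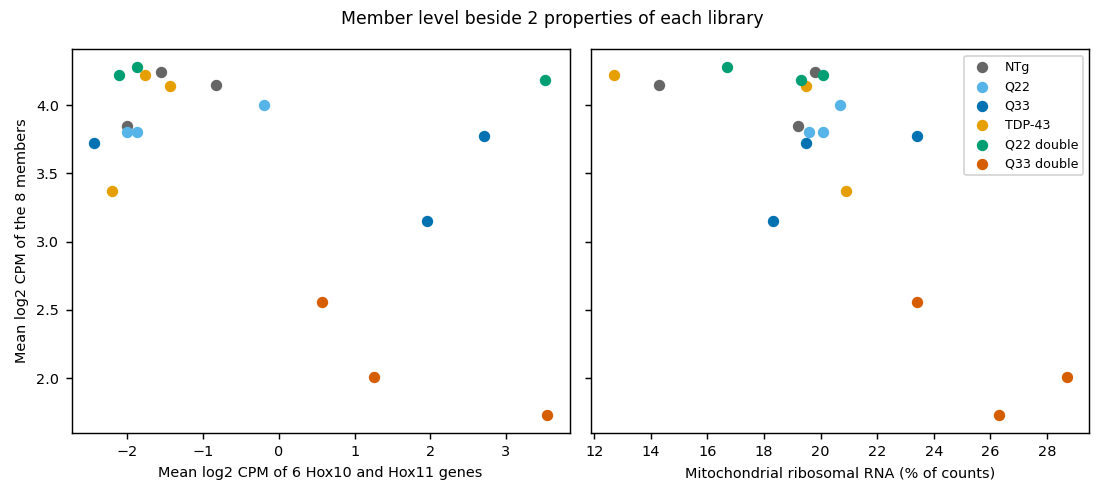
Mean log2 CPM of the 8 genes in each of 18 libraries against the mean log2 CPM of 6 Hox10 and Hox11 genes (left) and against the percentage of counts from mitochondrial ribosomal RNA (right), coloured by genotype. At 23.4% mitochondrial ribosomal RNA a Q33 library has 3.77 and a Q33 double library 2.56, and at a Hox level near 3.5 a Q22 double library has 4.18 and a Q33 double library 1.73.

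Close relatives of the 8 genes did not share the pattern as a group. Of 9 paralogs 5 were tested, and 1 of them, Sall1, was called against NTg (log2 difference -0.49 ± 0.14, 43.8 ± 5.04 CPM in NTg and 31.3 ± 6.69 CPM in the Q33 double knock-in). Sall1 was not called with the caudal Hox covariate, nor with the mitochondrial ribosomal RNA covariate (-0.3, edgeR adjusted p = 0.55). The other tested paralogs were at 0.02 for Ebf4, 0.6 for Gbx2, 0.2 for Sall2 and -0.97 for Sall4 in the main fit. None was called, and Ebf4 and Sall2 changed sign when scaled by library totals. The median of the 5 was 0.02, beside -0.01 over all tested genes. For this list and those below, the share of all tested genes called against NTg was 12.1%. It was 20.1% by library totals and 12.5% with DESeq2 size factors in edgeR. With the caudal Hox covariate it was 2.22%, and with the mitochondrial ribosomal RNA covariate 0.136%.

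Among 30 other transcription factors of the dorsal horn 26 were tested, and 6 were called lower and 2 higher against NTg, with a median of -0.1. The lowest adjusted p values belonged to Prrxl1 (also Drg11), a homeodomain factor of the excitatory sensory circuit that acts with Lmx1b and Tlx3, and to Mafa. Prrxl1 was at 11.5 ± 1.01 CPM in NTg and 3.28 ± 0.855 CPM in the Q33 double knock-in (log2 difference -1.81 ± 0.24), and Mafa at 5.94 ± 1.18 and 1.59 ± 0.774 CPM (-1.91 ± 0.27). Meis2 was higher, at 126 ± 9.78 CPM against 80.9 ± 12.9 CPM (0.64 ± 0.14), as was Onecut2 (0.46 ± 0.15), named for being the only other one in that direction. Neither of these was called when scaled by library totals, which left 10 lower and 0 higher. With the caudal Hox level as a covariate 2 were called lower and 0 higher. With the mitochondrial ribosomal RNA share as a covariate 0 were called in either direction, with adjusted p of 0.091 for Prrxl1 and 0.13 for Mafa (edgeR).

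Gene by gene, markers of excitatory dorsal horn neurons moved mostly downwards, while their summed level overlapped. The sum was 600 to 683 CPM in the NTg libraries and 502 to 685 CPM in the Q33 double libraries, with Slc17a6 as its largest part. Of 20 tested, 13 were called lower and 1 higher against NTg, with a median of -1.25. Car12, a carbonic anhydrase, was at 5.75 ± 0.847 CPM in NTg and 0.32 ± 0.168 CPM in the Q33 double knock-in (-4.18 ± 0.41). Calb1, the calcium-binding protein calbindin, was at 46.5 ± 5.86 and 19.4 ± 4.75 CPM (-1.26 ± 0.15). The gene called higher was Calb2, calretinin, at 87.1 ± 1.87 and 187 ± 45.5 CPM (1.1 ± 0.18). Slc17a6, the vesicular glutamate transporter of excitatory spinal neurons in general and likewise chosen after its value was seen, was at 238 ± 10 and 271 ± 54.9 CPM (0.19 ± 0.11, not called, and -0.05 by library totals). With the mitochondrial share as a covariate 3 of the 20 were called, and with the caudal Hox level 10 lower and 1 higher.

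Inhibitory markers were mixed, with 2 of 10 called lower and 3 higher. Their sum was 705 to 716 CPM in the NTg libraries and 792 to 955 CPM in the Q33 double libraries. Pdyn, the dynorphin precursor, was at 5.61 ± 1.61 CPM in NTg and 1.57 ± 0.317 CPM in the Q33 double knock-in (-1.84 ± 0.23), and Npy at 7.37 ± 2.29 and 2.43 ± 1.08 CPM (-1.61 ± 0.37). Slc6a5, the glycine transporter of inhibitory terminals, was higher, at 296 ± 30 and 461 ± 63.3 CPM (0.64 ± 0.13), and so were Slc32a1 (0.5 ± 0.13, not called by library totals) and Pvalb (0.88 ± 0.24). Library totals gave 4 lower and 2 higher, the caudal Hox covariate 2 lower and 0 higher, and the mitochondrial covariate 1 lower and 0 higher. Of 15 tested transcription factors of ventral interneurons 0 were called lower and 1 higher, where 12.1% of all genes were called. That 1 was En1 of the V1 class (1.64 ± 0.29). With DESeq2 size factors in edgeR 3 were called higher, with the caudal Hox covariate 2 and with the mitochondrial covariate 0. The median of the 15 was 0.68, and their summed level was 26.6 to 34.3 CPM in the NTg libraries and 42.1 to 59 CPM in the Q33 double libraries.

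Of 12 pan-neuronal genes 5 were called higher and 1, Syt1, lower (-0.88 ± 0.16), with a median of 0.54. By library totals 2 were called higher and 1 lower, with the caudal Hox covariate 1 higher and 1 lower, and with the mitochondrial covariate 0 in either direction. Their sum was 8360 to 9650 CPM in the NTg libraries and 12200 to 14900 CPM in the Q33 double libraries. Of 10 motor neuron markers 2 were called higher, Esrrg (0.67 ± 0.12) and Ret (0.63 ± 0.15, not called by library totals), against 1 with the caudal Hox covariate and 0 with the mitochondrial covariate.

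Ebf1 is also a gene of vessel mural cells, so their markers are given beside it. Of 9 tested, 0 were called lower and 2 higher, Acta2 (1.83 ± 0.34) and Myh11 (1.24 ± 0.23), where 12.1% of all genes were. Under the mitochondrial covariate 0 of the 9 were called, and with DESeq2 size factors in edgeR 3. Their summed level was 110 to 153 CPM in NTg and 143 to 225 CPM in the Q33 double libraries. Sensory neurons of dorsal root ganglia and monoamine neurons of the brainstem express some of the 8 genes as well. The 8 ganglion markers summed to 8.55 to 12.4 CPM in NTg and 11.2 to 26.7 CPM in the Q33 double knock-in, with 0 of the 4 tested called, and 2 of the 8 were at 0 in all 3 Q33 double libraries. Most of both sums was 1 gene, Calca, at 8.24 ± 1.92 CPM in NTg and 14 ± 9.27 CPM in the Q33 double knock-in. The sum thus says little about the other ganglion markers. Of the 7 brainstem markers 2 were tested and 1 was called lower, Th (-2.04 ± 0.48, 0.682 CPM in NTg and 0.163 CPM in the Q33 double knock-in). The latter level is close to the 3-count floor of those libraries, 0.113 to 0.133 CPM. With the mitochondrial covariate Th was not called (edgeR adjusted p = 0.14). The 7 summed to 0.887 to 1.78 CPM in the NTg libraries and 0.664 to 1.05 CPM in the Q33 double libraries.

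**Figure D4:**
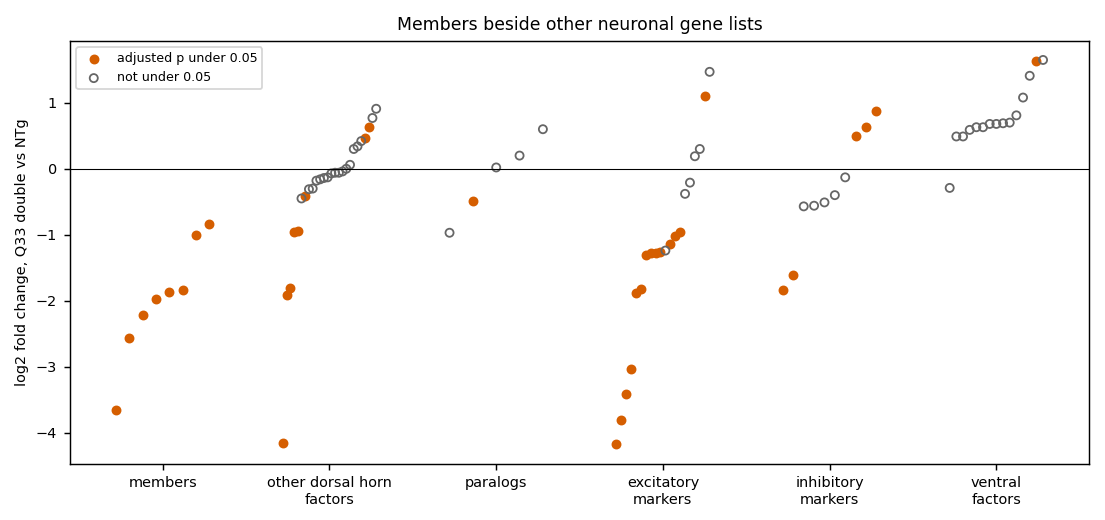
Log2 fold change between the Q33 double cords and NTg for the 8 genes and for 5 other lists, 1 point per tested gene, filled where the adjusted p (edgeR) was under 0.05. The 8 genes lie between -3.65 and -0.83, the 20 excitatory markers are mostly below 0 (median -1.25), and the 26 other dorsal horn factors lie on both sides of 0 (median -0.1).

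The genes whose level most resembled the list were ranked by Pearson's r of their log2 CPM with the mean standardised profile of the 8 genes over 18 libraries, among 16272 other genes that averaged 1 CPM or more. Among the 10 nearest were Camk2a (r = 0.992), Camkv (0.987), Myo5b (0.985), Cpne7 (0.984), Kcnip2 (0.984), Gpr26 (0.982), Tunar (0.982), Shisa8 (0.975) and Fat4 (0.974). Camk2a, the alpha subunit of a calmodulin-dependent kinase of excitatory neurons, was at 116 CPM in NTg and 37.8 CPM in the Q33 double knock-in on average, and Kcnip2, a potassium channel subunit, at 9.66 and 2.09 CPM. The ranking rests largely on the Q33 double libraries: over the 15 others 2 of these 10 genes, Camk2a and Myo5b, stayed among the nearest 10, and Camk2a ranked 1st with r = 0.978. With deviations from genotype means 5 of the 10 stayed, and by Spearman's rho 1. The genes with the highest r for single members were C130021I20Rik for Lmx1b (0.99), Cpne5 for Tlx3 (0.946), Cacna2d1 for Ebf1 (0.989), Gpr26 for Ebf2 (0.988), Camk2a for Ebf3 (0.985), Rnf165 for Lbx1 (0.935), Sema3f for Gbx1 (0.985) and Rims3 for Sall3 (0.976).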

How the data were processed

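The authors made the deposited whole-number counts with featureCounts 1.6.1 in stranded paired mode on exons of GENCODE M19, per the file headers, from TopHat alignments to mm10 that left out pairs matching several genes or places. Trim Galore 0.4.1, TopHat2, featureCounts, DESeq2 and mm10 are named in the submitters' processing notes. Per the labels' protocols, RNA with an integrity number above 7.5 was depleted of ribosomal RNA and sequenced as stranded libraries, 100-base pairs on 3 lanes. The labels do not give sex, litter or lane.

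The deposited counts of all 18 libraries entered 1 quasi-likelihood fit (edgeR 4.0.16, limma 3.58.1, R 4.3.3) with TMM scaling, edgeR's filter for low counts and a term for each genotype. P-values are two-sided, adjusted by the Benjamini-Hochberg method over 20635 genes at a threshold of 0.05, for 11 comparisons of 2 genotypes and 3 interactions. Log2 CPM used a prior count of 2. The test was tried on simulated counts first. DESeq2 1.42.0, limma-voom, other scalings, covariates, no filter, other sample sets and leaving out each library were alternatives. Replicates are separate animals, numbered by accession order. Counts are reads without molecular identifiers, so the floor of 3 counts covers counting error only. The 8 genes and the 21 other lists were chosen with earlier results of these data known. The text names the 8 genes, the 3 genes of a list with the smallest adjusted p among those called, and the genes nearest in profile (10 for the mean and the first of 3 for each member). Other names were added after their values were seen. A few genes chosen this way are not reported here. RefSeq promoter windows were searched for fixed motifs. No count column was left unused.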

Additional observations from a re-analysis of the deposited data

Results flagged for a closer look

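The tract length difference (Q33 minus Q22) was lower with human TDP-43 than without it for 5 of the 8 genes past the threshold of edgeR's interaction contrast over 18 libraries (adjusted p under 0.05), given as a description. The log2 estimate was -3.25 ± 0.56 for Ebf2, -2.55 ± 0.44 for Lmx1b, -1.72 ± 0.35 for Gbx1, -1.66 ± 0.32 for Ebf1 and -1.56 ± 0.3 for Ebf3. The contrast includes the Q33 double libraries, with which the list was chosen, so these values are no independent support. Leaving out any of 7 libraries (Q22 replicate 1 or 2, Q33 replicate 1 or 2, Q22 double replicate 2 or 3, Q33 double replicate 1) ended the calls of all 5 genes. With the mitochondrial ribosomal RNA share as a covariate the estimates were -3.01, -2.21, -1.49, -1.53 and -1.46 in the same order, and none was called. Whether that share has a part in the difference was not tested beyond this fit.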

How the results depend on the processing

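No paired analysis was possible because each animal has a number of its own and the replicate numbers only follow accession order. No estimate for any of the 8 genes that was called in either fit changed sign under an alternative. With the mitochondrial ribosomal RNA share as a covariate, the Q33 double knock-in had 3 of the 8 genes called against NTg, 5 against the Q22 double knock-in, 0 against the TDP-43 knock-in and 0 against Q33, and the tract length interaction 0. The term for Y-linked reads with the caudal Hox covariate, chosen after the data were seen, gave 5 against NTg and 0 for the tract length interaction. A fit on the 2 groups alone gave 5 against the TDP-43 knock-in, where 1.33% of all its genes were called (256). Without the filter on low counts, calls were 1 for Q22 against NTg, 3 for Q33 against NTg, 1 for the Q22 double knock-in against Q22, 8 for the tract length interaction, 5 for Q33 with TDP-43 and 2 for Q22 with TDP-43. That fit called 2.14% of all its genes (838) for the tract length interaction, where the filtered fit called 0.344% (71). It called 408 genes for Q33 against NTg, where the filtered fit called 0, and the cause was not tested. For the tract length interaction limma-voom gave 1, and for Q33 with TDP-43 DESeq2 gave 3. Leaving out 1 library at a time gave 7 to 8 against NTg, 7 to 8 against TDP-43, 0 to 7 against Q33, 0 to 7 for the tract length interaction and 0 to 3 for Q33 with TDP-43. Against the Q22 double knock-in it left 8 called, and in the remaining comparisons 0. Scaled by library totals, mean levels moved by more than 1 SD for Ebf3 (132 CPM) and Sall3 (31.7 CPM) of the Q22 double and for Sall3 of NTg (28.5 CPM). Depth limits Tlx3 most, at 4 to 10 counts in the Q33 double libraries.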

Other observations

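Glial marker lists in the Q33 double cords, set against NTg, are given for the cell types that surround dorsal horn neurons. Of all tested genes 12.1% were called in this comparison, 6.39% as lower. Of 6 astrocyte markers 3 were called lower by edgeR, led by Slc1a3, a glutamate transporter, at 71.8 ± 9.29 CPM in NTg and 37 ± 8.29 CPM in the Q33 double cords (log2 difference -0.96 ± 0.17), Gfap (-1.57 ± 0.34) and Aqp4 (-0.49 ± 0.12). Of 6 microglial markers 2 were lower, Csf1r (-0.63 ± 0.13) and Cx3cr1 (-0.67 ± 0.18). Endothelial markers had 1 of 5 called higher, Cldn5 (0.75 ± 0.22, not called by library totals or with the caudal Hox covariate), and fibroblast markers 1 of 6 lower, Col1a2. The 2 tested Schwann cell markers were not called. With the mitochondrial ribosomal RNA share as a covariate none of these genes was called, where 0.136% of all tested genes were.

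In the interaction of tract length with human TDP-43, 5 of 20 excitatory markers passed, all below 0, among them Car12 (-3.13 ± 0.54) and Calb1 (-1.14 ± 0.21). Of the 26 other dorsal horn factors 2 passed, Mafa (-2.03 ± 0.37) and Prrxl1 (-1.69 ± 0.33), and of 10 inhibitory markers 1, Pdyn (-2.08 ± 0.3). The medians were -1.08, -0.14 and -0.25, beside 0 over all tested genes. Of all tested genes 0.344% passed. These values rest on the Q33 double libraries as well.

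Among Hox genes, of 6 tested from the cervical groups 2 were called lower in the Q33 double cords than in NTg, Hoxb4 (-0.67 ± 0.17) and Hoxb5 (-0.6 ± 0.19). Of 6 caudal ones 1 was called higher, Hoxd10 (5.98 ± 1.82), where 12.1% of all tested genes were called in either direction. The median log2 difference of the 6 caudal genes was 5.29. They summed to 2.3 to 17.9 CPM in the NTg libraries and 53.3 to 103 CPM in the Q33 double libraries. With the mitochondrial ribosomal RNA share as a covariate 0 genes of either group were called.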
